A study of Acipenser schrenckii with 5 samples.

Results

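The miRNAs miR-203 and miR-205 were measured in 5 tissues of Amur sturgeon (Acipenser schrenckii) with a microarray that carried 663 miRNA probes. All probes whose name, after the species prefix, begins with miR-203 or miR-205 were taken, together with the probe novel_12, a sturgeon sequence that differs by 1 base from a known miR-203 sequence. This gave 11 of 663 probes, of which 7 are named miR-203, 3 are named miR-205 and 1 is novel_12. The prefixes dre, ipu, ccr, pol and ola stand for zebrafish, channel catfish, common carp, olive flounder and medaka, the species from which the probe sequences were taken.

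The 5 arrays were hybridised with total RNA of muscle, liver, spleen, brain and heart of 1 fish of 5 months, with 1 array per tissue. Each array was single-colour (Cy3), and each probe stood on it in 5 repeat spots. How the tissues were dissected is not stated in the labels or the study's methods. They are mixtures of cell types, and skin was not among them. In such bulk RNA, more cells of a type and more miRNA per cell cannot be told apart. With 1 array per tissue no test between tissues is possible, and each ± below is the SD over 5 repeat spots of 1 array, a technical error that holds nothing of the spread between fish.

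A miRNA is cut from a hairpin precursor whose 2 arms give a 5p and a 3p product, and it finds its targets mainly through the seed, bases 2 to 8 counted from its 5′ end. In mammals miR-203 is a miRNA of the stratified epithelium of the skin, where it represses the transcription factor p63 and limits the growth of keratinocytes that have left the basal layer. MiR-205 is likewise an epithelial miRNA of mammals, which acts with the miR-200 family on the repressors Zeb1 and Zeb2 and is needed in the progenitor cells of mouse skin.

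The 11 probe sequences held 5 distinct seeds, and 0 of the probes outside the set carried any of them. They are shown here by 1 sequence for each seed, with the seed in capitals. The array values below divided mostly along these groups. An exception was dre-miR-203b-5p, undetected in all tissues, while the other probes with its seed were detected in muscle.

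dre-miR-203a: gUGAAAUGuuuaggaccacuug
novel_12: aGUGGUUCuaaacaguucaaca
ipu-miR-205: uCCUUCAUuccaccggagucugu
ipu-miR-203c: uUGAACUGuuaagaaccacugc
ola-miR-205: aGAUUUCAguggugugaagugu

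The first seed belongs to the 3p product of the miR-203 hairpin, the strand that the name miR-203 usually means, and is held by 2 probes. The seed of novel_12 is that of the 5p product of the same hairpin and is held by 5 probes. The seed of ipu-miR-205 is that of the main miR-205 strand and is held by 2 probes, dre-miR-205 being the same sequence without the last base of ipu-miR-205. The other 2 probes share a family name but no seed with the rest. Of the 22 bases of ipu-miR-203c, 20 consecutive bases are the complement of ipu-miR-203a, so its sequence matches the strand opposite to that probe. It also lies 6 substitutions from dre-miR-203a and 6 from dre-miR-203b-3p. Which RNA it bound was not tested. The sequence of ola-miR-205 is that of the other arm of the miR-205 hairpin.

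Within the miR-203 groups the probes differ by single bases, and those that differ are shown with the differing base in capitals.

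dre-miR-203a: gugaaauguuUaggaccacuug
dre-miR-203b-3p: gugaaauguuCaggaccacuug
novel_12: agugguucuAaacaguucaaca
ipu-miR-203a: agugguucuUaacaguucaaca
dre-miR-203b-5p: agugguucuCaacaguucaaca

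Counted from the 5′ end, dre-miR-203b-3p differs from dre-miR-203a by U11C. From novel_12, ipu-miR-203a differs by A10U and dre-miR-203b-5p by A10C. The probes ccr-miR-203b-5p and pol-miR-203-5p are ipu-miR-203a and dre-miR-203b-5p with 1 further base at the 3′ end. All these differences lie outside the seed. Since probes this alike can bind the same RNA, probes with the same seed are not independent measurements.

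The hairpin that the study lists for novel_12 is 62 bases long. It holds novel_12 at bases 1 to 22 and the whole of dre-miR-203a at bases 39 to 60, and in the fold predicted by RNAfold 19 of the 22 bases of novel_12 pair with bases of miR-203a. By its sequence, novel_12 is thus the 5p arm of a hairpin whose 3p arm is miR-203a. In the zebrafish hairpin dre-mir-203a of the same list, which is 96 bases long, ipu-miR-203a lies at bases 32 to 53 and dre-miR-203a at bases 70 to 91, and ipu-miR-203c matches the opposite strand at bases 30 to 51. Of 126 hairpins listed by the study, 2 hold dre-miR-203a whole and 0 hold dre-miR-205. Of the 103 mature sequences listed by the study, 2 match one of the 11 probes exactly (miR-203a and novel_12), and 0 carry the seed of the main miR-205 strand. The study sequenced pooled RNA of another fish and kept only reads that matched its assembled transcriptome. A miRNA missing from that list can thus still have been present.

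**Figure D1:**
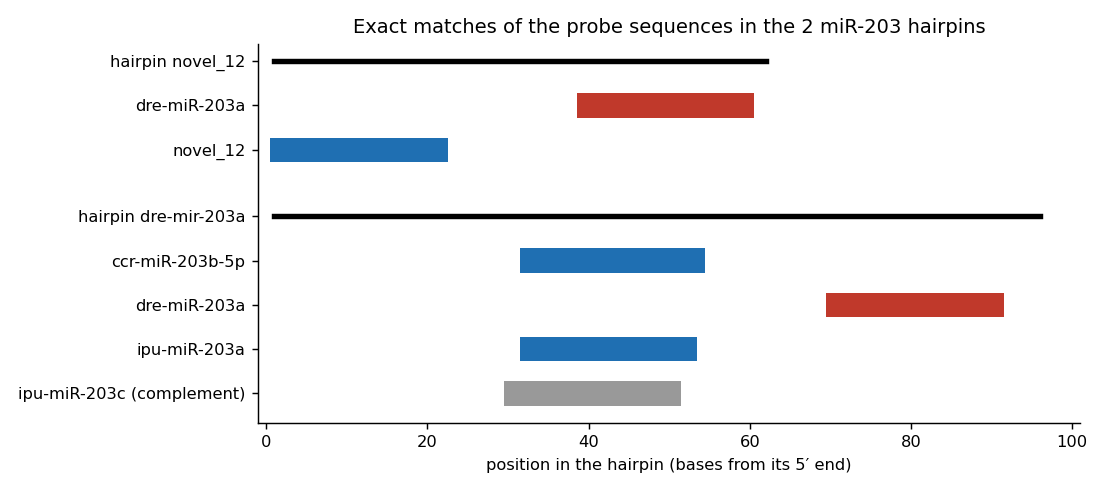
Position of exact probe matches in 2 hairpins of the study's list, in bases from the 5′ end of the hairpin. Black lines are the hairpins (62 and 96 bases), red bars the 3p sequence dre-miR-203a, blue bars 5p sequences and the grey bar a match to the complementary strand. In the hairpin of novel_12 the blue bar lies at bases 1 to 22 and the red bar at bases 39 to 60, on opposite arms.

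The tissue labels were checked on defining miRNAs. All 22 probes of the striated muscle families miR-1, miR-133, miR-206 and miR-499 were detected in muscle, 2 in liver, 4 in spleen, 12 in brain and 20 in heart. Their summed Signal was 308242 in muscle, 48200 in liver, 22076 in spleen, 28743 in brain and 73518 in heart. Most of the liver, spleen and brain sums came from 1 probe, pol-miR-133-5p. It had 126306 in muscle, 44249 in liver, 20156 in spleen, 24053 in brain and 12079 in heart. The neural families miR-9 and miR-124 had their highest sum in brain and the hepatocyte miRNA miR-122 in liver, although 2 of its 4 probes were also detected in each of muscle, spleen and brain. The red cell and white cell families had their highest sums in spleen, and the highest miR-499 Signal was in heart (2573 in muscle and 13709 in heart). Detection used the limits of the study's criteria, while taking the background and its SD from empty spots was a choice made here. The density of a spot (its median pixel brightness, in raw units) had to lie above that of nearby empty spots by over 3 SDs of all empty spots. Its pixel SD had to be under 0.5 of that difference. Both had to hold in at least 50% of the spots. The median density of the 361 empty spots was 69.8 in muscle, 98.4 in liver, 72.9 in spleen, 77.6 in brain and 52.0 in heart. The liver array stood apart, since its empty spots had an SD of 58.5 and reached 669, against SDs between 4.91 and 17.6 on the other arrays, so that detection in liver required a far brighter spot.

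In muscle 10 of 11 probes were detected, where 65% of all 663 probes were. In liver 0 of 11 were detected (29.7% of all probes), in spleen 3 of 11 (50.2%), in brain 3 of 11 (55.8%) and in heart 0 of 11 (52%). The SD of the empty spots was lowest in muscle (4.91, against 5.90 in spleen, 13.1 in heart and 17.6 in brain). A dim probe therefore passed most easily on the muscle array. With a robust SD of the empty spots (from the median absolute deviation), which a few bright empty spots move little, the counts were 9 in muscle, 2 in liver, 3 in spleen, 5 in brain and 5 in heart. Of all 663 probes, this limit passed 416 in muscle, 287 in liver, 333 in spleen, 452 in brain and 412 in heart. The plain SD had passed 431, 197, 333, 370 and 345 in the same order. The counts over all probes therefore also rose in liver, brain and heart, and brain then had the most.

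The 3p sequence of miR-203 was bright in muscle and near the empty spots elsewhere, brain excepted. The 5 muscle spots of dre-miR-203a had densities of 3893 to 4661 with a median of 4227. Its median density was 109 in liver, 85.7 in spleen, 222 in brain and 82.6 in heart, so that the muscle spots lay far above those of every other array. In brain, where all 5 spots passed detection (202 to 233), 0 of 361 empty spots were as bright as this median, while in liver 98 of 361 were. The ratio of raw median densities, background included, was 38.8 for muscle over liver, 49.3 over spleen, 19.0 over brain and 51.2 over heart.

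After background correction and normalization between arrays, the value hereafter called Signal (linear, arbitrary units) of dre-miR-203a was 8641 ± 559 in muscle, 138 ± 52.3 in liver, 99.3 ± 14.5 in spleen, 172 ± 13.7 in brain and 28.4 ± 4.14 in heart. Where a tissue was not detected, it was set to the lowest Signal that any detected probe had on its array. This was 365.6 in liver, 56.1 in spleen, 58.2 in brain and 49.6 in heart, and the ratio is then a lower bound. Where the probe's own undetected Signal was higher, it was used instead, with the error of both tissues. Such a ratio is not a measured fold, since the undetected Signal was not told apart from background. Its ± holds the spread of the spots alone, not the effect of the normalization. Muscle was thus at least 23.6-fold higher than liver and at least 174-fold higher than heart. It was 50.2 ± 5.14-fold higher than brain and 87.0 ± 13.9-fold higher than the undetected spleen Signal. The normalization itself moved these values, and without it the ratios were at least 21.2 over liver, at least 139 over spleen, 26.5 over brain and at least 80.8 over heart. Muscle lay above brain among the 2 detected levels, and the undetected levels of liver, spleen and heart have no order among themselves. The liver limit also lay above the brain Signal, so liver and brain cannot be ordered either.

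The sister probe dre-miR-203b-3p had the same pattern. Its muscle spots had densities of 3092 to 3869 with a median of 3423, against a median of 105 in liver, of 78.9 in spleen, of 175 in brain and of 71.3 in heart. Its Signal was 6879 ± 571 in muscle, 113 ± 34.0 in liver, 95.1 ± 12.3 in spleen, 130 ± 14.9 in brain and 24.4 ± 5.29 in heart. Muscle and brain alone passed detection. Muscle was 53.1 ± 7.54-fold higher than brain and 72.4 ± 11.1-fold higher than the undetected spleen Signal. It was at least 18.8-fold higher than liver and at least 139-fold higher than heart. Without normalization the ratios were 28.3 over brain, at least 17.2 over liver, at least 112 over spleen and at least 65.4 over heart. In brain the median was also reached by 6 of 361 empty spots.

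The main strand of miR-205 was bright in muscle, the one tissue where both of its probes passed detection. The muscle spots of dre-miR-205 were closely grouped, with densities of 4736 to 5019 and a median of 4748. Elsewhere it had medians of 179 (liver), 81.9 (spleen), 95.2 (brain) and 65.9 (heart). Its Signal was 9721 ± 227 in muscle, 277 ± 78.9 in liver, 92.1 ± 17.0 in spleen, 50.2 ± 36.4 in brain and 16.6 ± 4.15 in heart. None of these 4 other tissues passed detection. Muscle was at least 26.6-fold higher than liver, at least 167-fold higher than brain and at least 196-fold higher than heart. It was 106 ± 19.6-fold higher than the undetected spleen Signal. Without normalization the ratios were at least 24.2 over liver, 158 over spleen, 79.1 over brain and 91.9 over heart. With the robust SD, 4 of 5 liver spots passed, and muscle was then 35.1 ± 10.03-fold higher than liver.

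The longer probe ipu-miR-205 had muscle densities of 6450 to 7567 with a median of 6745. Its other medians were 227 in liver, 91.2 in spleen, 113 in brain and 66.8 in heart, and 20 of 361 empty liver spots were as bright as its liver median. Its Signal was 14267 ± 938 in muscle, 344 ± 81.4 in liver, 110 ± 15.5 in spleen, 61.8 ± 19.0 in brain and 11.2 ± 5.12 in heart. Spleen passed detection with 3 of 5 spots, and muscle was 129 ± 20.1-fold higher than spleen. Against the undetected tissues muscle was at least 39.0-fold higher than liver and at least 288-fold higher than heart. It was 231 ± 72.5-fold higher than the undetected brain Signal. Without normalization the ratios were at least 34.9 over liver, 196 over spleen, at least 114 over brain and at least 133 over heart. With the robust SD all 5 liver spots passed, and the muscle to liver ratio was 41.5.

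**Figure D2:**
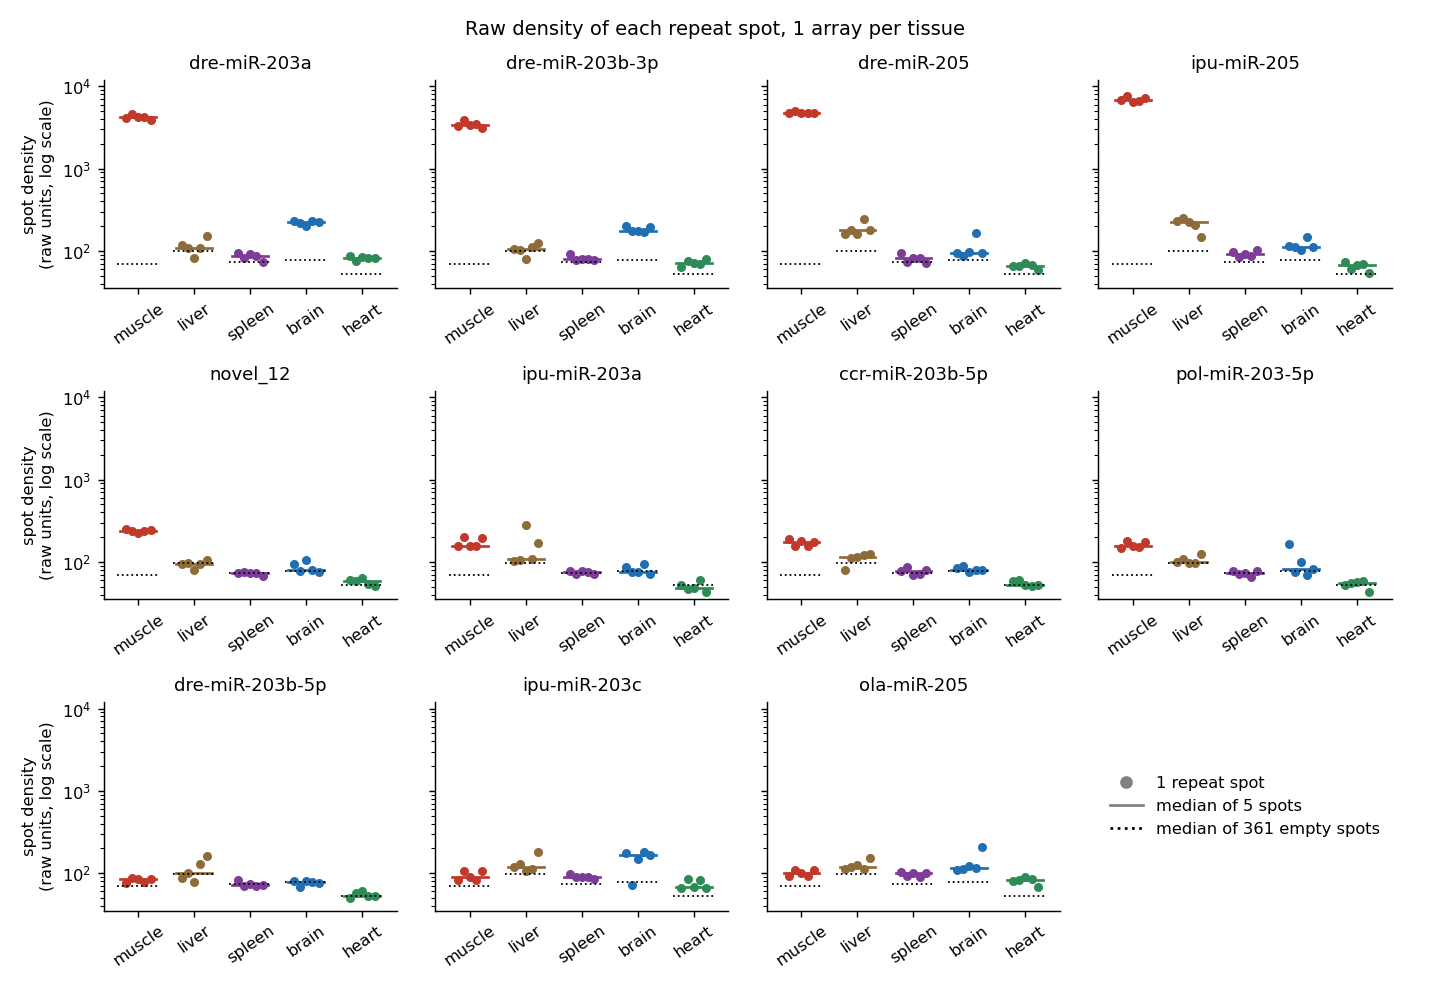
Raw density of each of the 5 repeat spots of the 11 probes in muscle, liver, spleen, brain and heart (log scale), with the median of the 5 spots (line) and the median of the 361 empty spots of that array (dotted). In the upper row (dre-miR-203a, dre-miR-203b-3p, dre-miR-205 and ipu-miR-205) the muscle spots lie between 3092 and 7567 and every other spot at or below 248.

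Novel_12 and 3 of the other 4 probes with the 5p sequence of miR-203 were detected in muscle and in no other tissue, all of them at low Signal. The muscle spots of novel_12 had densities of 222 to 248 with a median of 239, and 0 of 361 empty muscle spots were as bright. Its medians were 94.3 in liver, 73.9 in spleen, 80.7 in brain and 58.9 in heart, each below or near those of the empty spots, and 25 of 361 empty heart spots were as bright as its heart median. The muscle spots did not overlap those of any other tissue, whose highest were 105 in liver and 104 in brain. Its Signal was 230 ± 14.8 in muscle, 27.5 ± 8.61 in liver, 34.5 ± 5.72 in spleen, 21.0 ± 11.9 in brain and 27.7 ± 5.93 in heart. Muscle was at least 4.11-fold higher than spleen, at least 3.96-fold higher than brain and at least 4.65-fold higher than heart. Without normalization these bounds were 5.89 over spleen, 2.95 over brain and 3.43 over heart. No bound can be given against liver, because the lowest detected Signal on the liver array lay above the muscle Signal. With the robust SD the liver bound was at least 3.23-fold.

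The other 4 probes with this 5p seed lie within 1 base and 1 end base of novel_12. Ipu-miR-203a had median densities of 156 in muscle, 108 in liver, 76.4 in spleen, 75.5 in brain and 48.9 in heart. Its muscle Signal of 147 ± 25.7 was at least 2.63-fold higher than in spleen and at least 2.53-fold higher than in brain. Its liver spots spread widely, 1 at 283, 1 at 168 and the other 3 between 102 and 108, and it was not detected in liver. Ccr-miR-203b-5p had muscle spots of 155 to 191 and a Signal of 141 ± 16.4 there, at least 2.52-fold over spleen and 2.43-fold over brain. Pol-miR-203-5p had muscle spots of 150 to 181 and a Signal of 129 ± 17.4, at least 2.30-fold over spleen and 2.22-fold over brain. However, 1 of its brain spots, at 163, lay within the muscle range, and its brain Signal was 32.8 ± 37.5. These 3 passed in 5 of 5 muscle spots and were detected in no other tissue. As for novel_12, no bound can be given against liver with the main detection limit. With the robust SD, muscle was at least 1.98-fold over liver for ccr-miR-203b-5p and at least 1.81-fold for pol-miR-203-5p. For ipu-miR-203a it was 1.57 ± 1.64-fold over the undetected liver Signal, a difference within the spread of the spots. Without normalization the bounds of ipu-miR-203a, ccr-miR-203b-5p and pol-miR-203-5p were 1.85, 1.84 and 1.69 over brain and 3.69, 3.67 and 3.38 over spleen, in this order. Dre-miR-203b-5p, which lacks only the last base of pol-miR-203-5p, was detected in no tissue. Its muscle spots had densities of 75.4 to 86.5, 2 of 5 passed, and its Signal was 21.5 ± 7.23 in muscle, 28.9 ± 34.5 in liver, 18.2 ± 4.59 in spleen, 12.1 ± 5.52 in brain and 20.9 ± 4.94 in heart.

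The 2 probes for another strand or arm were not muscle-high. Ipu-miR-203c had median densities of 89.7 in muscle, 119 in liver, 90.2 in spleen, 168 in brain and 67.3 in heart, and passed in 4 of 5 spots each in muscle, spleen and brain. Its Signal was 58.3 ± 18.0 in muscle, 65.6 ± 8.40 in spleen and 82.6 ± 44.2 in brain. The muscle and spleen values differed by less than the spread of the spots. In brain 1 spot at 71.8 made most of that spread, and the other 4, with densities of 147 to 179, lay above the highest muscle spot of 106. The ratio of muscle to brain was 0.71, and 0.38 without normalization. With the robust SD, ipu-miR-203c was undetected in muscle (2 of 5 spots) and detected in heart (3 of 5) besides spleen and brain. Ola-miR-205 had median densities of 102 in muscle, 119 in liver, 99.1 in spleen, 116 in brain and 81.3 in heart. Its Signal of 71.8 ± 18.5 in muscle and 77.7 ± 15.3 in spleen, the 2 tissues where it was detected, differed by less than the spread of the spots. With the robust SD it was also detected in brain (4 of 5 spots) and heart (5 of 5).

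Over the 11 probes, the highest Signal was in muscle for 8, in liver for 1 (dre-miR-203b-5p, detected in no tissue), in spleen for 1 (ola-miR-205) and in brain for 1 (ipu-miR-203c). In the liver, spleen and brain cases the difference from muscle was smaller than the spread of the spots. For ipu-miR-203c, 1 low brain spot made most of that spread. Muscle was the highest tissue for 16.6% of all 663 probes. The 4 bright probes, dre-miR-203a, dre-miR-203b-3p, dre-miR-205 and ipu-miR-205, were detected in muscle and at least 4-fold higher there than in each other tissue, which held for 13 of 663 probes (1.96%). The other 9 of the 13 were probes of striated muscle families, 2 of miR-1 (6.35-fold and 7.35-fold against the highest other tissue or its bound), 5 of miR-133 (4.40-fold to 14.9-fold) and 2 of miR-206 (11.4-fold and at least 18.1-fold). When the liver array was left out of the normalization and the ratio, an alternative chosen after seeing the data, 5 of 11 probes and 20 of 663 (3.02%) passed, novel_12 being the added one with at least 4.43-fold. The median Signal of the 11 probes was 147 in muscle, 74.1 in liver, 65.6 in spleen, 50.2 in brain and 24.4 in heart, whereas the median over all 663 probes was 129 in muscle, 142 in liver, 92.1 in spleen, 98.5 in brain and 87.6 in heart. Of the 11 probes, 0 were detected in liver, 3 in spleen, 3 in brain and 0 in heart. The medians of the 11 in these tissues thus rest mostly on undetected Signals and give no order among them.

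**Figure D3:**
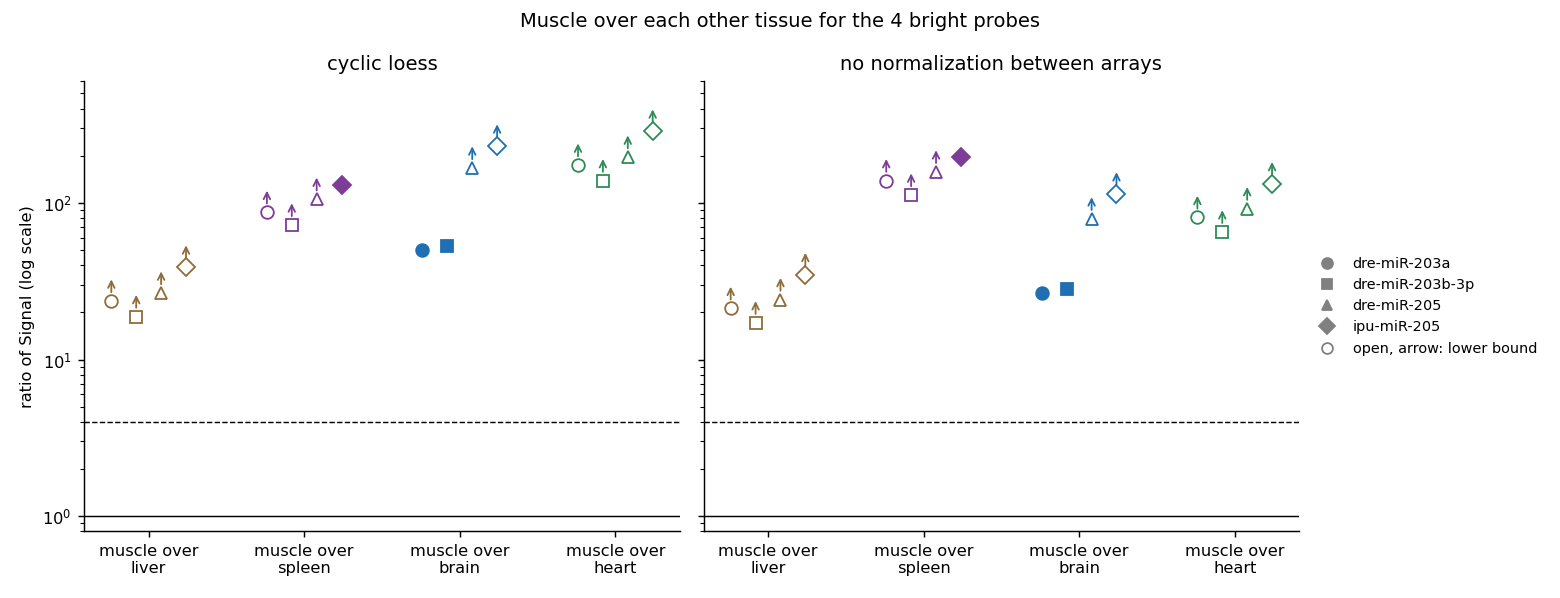
Ratio of muscle Signal to that of liver, spleen, brain and heart for the 4 bright probes (log scale), with cyclic loess between arrays (left) and without normalization (right). Open symbols with arrows are undetected tissues, where the ratio is a lower bound unless the probe's own Signal lay above the lowest detected one. Filled symbols are ratios between detected tissues, the solid line is 1 and the dashed line 4. The values in both panels lie above the dashed line, from 18.8 to 288 on the left and from 17.2 to 196 on the right.

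**Figure D4:**
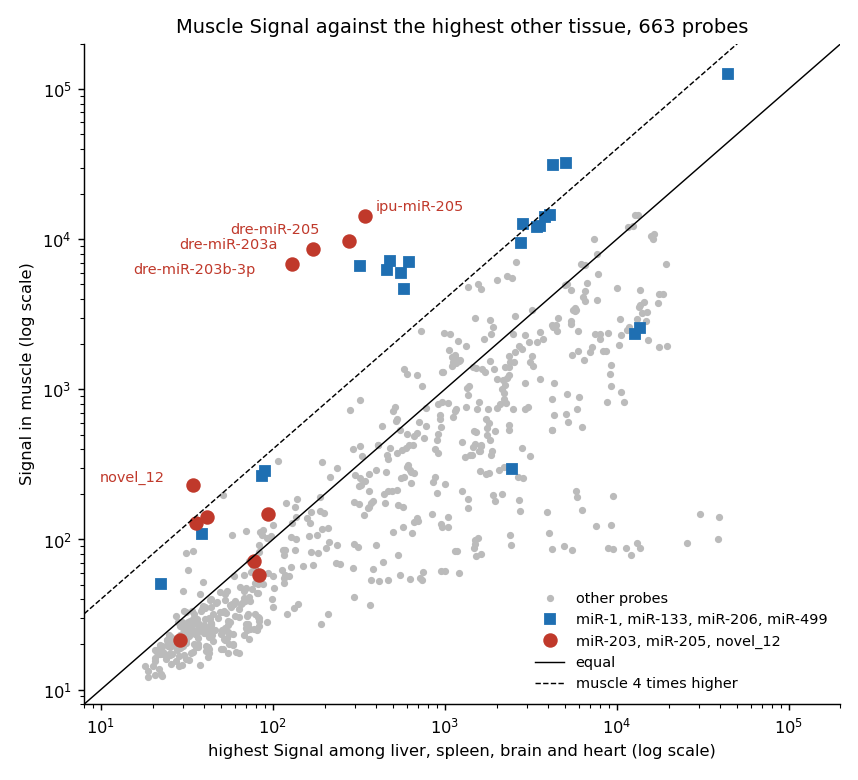
Signal in muscle against the highest Signal among liver, spleen, brain and heart for 663 probes (log axes), with the 11 miR-203, miR-205 and novel_12 probes as red circles, striated muscle families as blue squares and all others in grey. Each tissue enters with its own Signal, detected or not, so novel_12 lies above the dashed 4-fold line although its bound against liver does not pass it. The 4 bright probes lie at muscle Signals of 6879 to 14267 and at highest other Signals of 130 to 344.

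Outside the 11 probes, the profile over the 5 tissues nearest to dre-miR-203a was that of ola-miR-206, a skeletal muscle miRNA. Its Euclidean distance was 2.20 in log2 Signal, with values below the lowest detected Signal of an array set to it. Dre-miR-206 followed at 3.49 and dre-miR-10b, with 2447 ± 257 in muscle and 729 ± 74.8 in spleen, at 3.60. The 4 bright probes were nearer to each other, dre-miR-203a lying at 0.53 from dre-miR-203b-3p, 1.58 from dre-miR-205 and 1.65 from ipu-miR-205. Nearest to ipu-miR-205 outside the set were ola-miR-206 (3.20), ccr-miR-133a-5p (3.47) and ola-miR-133-5p (3.48). The muscle miRNAs were detected in tissues where most of the bright probes were not. Ola-miR-206 had a Signal of 6608 ± 696 in muscle, 249 ± 41.1 in liver, 297 ± 25.4 in spleen, 319 ± 35.6 in brain and 112 ± 11.3 in heart, and was detected in all tissues but liver. Ola-miR-133-5p had 7189 ± 104 in muscle, 141 ± 60.2 in liver, 73.5 ± 7.75 in spleen, 49.6 ± 13.2 in brain and 481 ± 31.5 in heart, where it was detected and 0 of the 4 bright probes were. With the robust SD, 1 of these 4 passed in spleen, 3 in brain and 3 in heart.

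Other epithelial miRNAs were not distributed like miR-203 and miR-205. The epithelial families miR-200, miR-141 and miR-429 had 12 probes, of which 12 were detected in muscle, 11 in liver, 10 in spleen, 0 in brain and 12 in heart. Their summed Signal was 20393 in muscle, 26030 in liver, 3175 in spleen, 477 in brain and 6095 in heart, and 0 of 12 were at least 4-fold higher in muscle. Dre-miR-200a, the brightest of them in muscle, had a Signal of 3380 ± 435 in muscle, 3231 ± 815 in liver, 405 ± 22.5 in spleen, 31.7 ± 4.79 in brain and 800 ± 65.5 in heart. The muscle, liver, spleen and heart arrays all carried miR-200 family Signal. Of the 4 bright probes 4 were detected in muscle, 0 in liver, 1 in spleen and 0 in heart. With the robust SD, 2 of these 4 passed in liver, 1 in spleen and 3 in heart, at the low densities given above. In brain both probes of the miR-203 3p strand were detected and 0 of the 12 epithelial family probes were.

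Of the miR-183, miR-96 and miR-182 families, known from sensory cells of the inner ear and lateral line in zebrafish, 9 of 12 probes were detected in muscle, 0 in liver, 0 in spleen, 9 in brain and 0 in heart. Their summed Signal was 1401 in muscle, 585 in liver, 503 in spleen, 1110 in brain and 348 in heart. Muscle was the highest tissue for 10 of the 12, but for 1 of 12 without normalization, and 0 were at least 4-fold higher in muscle. Hhi-miR-96, the brightest of them in muscle (hhi is Atlantic halibut), had 260 ± 49.6 in muscle, 152 ± 132 in liver, 70.1 ± 8.91 in spleen, 215 ± 13.4 in brain and 27.9 ± 5.71 in heart.

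Families of other cell types gave 0 probes at least 4-fold higher in muscle. For the connective tissue families miR-199 and miR-214, 9 of 10 probes were detected in muscle and 9 in each other tissue, with summed Signals of 38771 in muscle, 13436 in liver, 6981 in spleen, 6466 in brain and 11849 in heart. Muscle was the highest tissue for 9 of these 10 probes, and for 4 without normalization. The cartilage miRNA miR-140 had 5 of 5 probes highest in muscle, but 0 without normalization. Muscle was the highest tissue for 0 of 6 probes of the red cell families miR-144 and miR-451 and for 0 of 11 probes of the white cell families miR-142 and miR-223. It was likewise so for 0 of 7 probes of the pancreatic families miR-216, miR-217 and miR-375 and for 0 of 4 probes of the hepatocyte miRNA miR-122. The part that any of these cell types had in the muscle Signal of miR-203 and miR-205 was not tested.

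**Figure D5:**
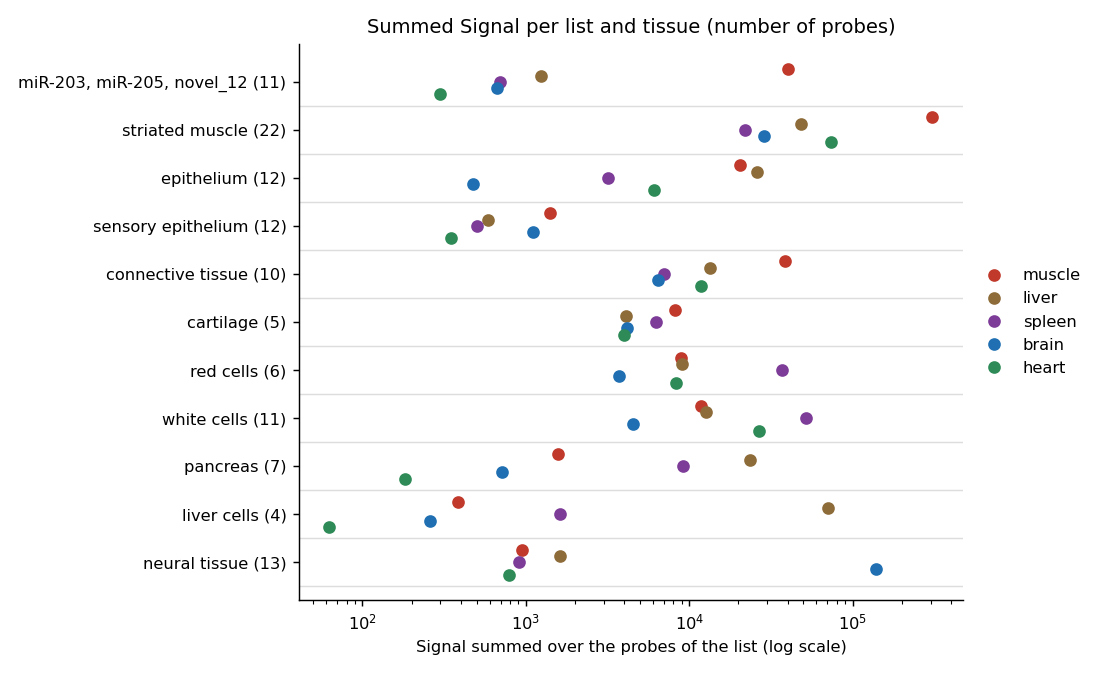
Signal summed over the probes of each family list in muscle, liver, spleen, brain and heart (log scale), with the number of probes in brackets and 1 point per array. For miR-203, miR-205 and novel_12 the muscle sum (40307) lies far right of those of the other tissues (297 to 1246). These other sums come mostly from undetected probes and give no order of tissues. Probes of nearly the same sequence are each counted in a sum. For the epithelium list the muscle sum (20393) lies left of the liver sum (26030).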

How the data were processed

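The deposited files hold, for every repeat spot, the unprocessed fluorescence intensity as the scanner software gave it (median pixel brightness or density, linear scale, with commas in large values removed here) and its SD over pixels. The authors' own subtraction of background and normalization came later and are not in these values. Per the labels and the study's methods, small RNA was tailed, tagged and stained with Cy3, and the chip was read with a GenePix scanner and Array-Pro. The deposited table of processed values was not used, since its row names did not match the scanner values.

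Background was corrected by normexp (offset 50, fitted on all spots) in limma 3.58.1 under R 4.3.3, and log2 values of the probe spots were normalized by cyclic loess (3 iterations). The offset was then removed, and Signal was the mean of 5 spots. Hairpins were folded with RNAfold 2.7.2. The calls were tested on simulated data whose background noise had the robust SD of the empty spots. The wider spread of the empty liver spots was not part of that simulation. Ratios carry the propagated SD of the spots, except that a bound against the lowest detected Signal carries that of muscle alone. The 11 probes, the families and the thresholds were chosen with earlier results of these data known. Probes named outside the set were drawn from the 5 with the highest muscle ratio or bound at a muscle Signal above 500, the 3 nearest in profile to dre-miR-203a and to ipu-miR-205, and the brightest in muscle of each family list. The alternatives tried were plain subtraction of nearby empty spots, an offset of 16, quantile or no normalization, the median over spots, stricter or robust detection limits, a fold of 2 or 8, and leaving out the liver array.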

Additional observations from a re-analysis of the deposited data

How the results depend on the processing

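The 4 bright probes were at least 4-fold higher in muscle than in each other tissue under every alternative run, and 7 to 9 of the 11 probes were highest in muscle. The share of all 663 probes highest in muscle (16.6%) was taken in the main processing alone. The counts of 7 to 9 therefore have no such share beside them under the alternatives. The lowest ratio of muscle to another tissue, 23.6 for dre-miR-203a, 18.8 for dre-miR-203b-3p, 26.6 for dre-miR-205 and 39.0 for ipu-miR-205, moved in size. In this order of probes it was 16.8, 13.1, 18.7 and 28.0 with plain background subtraction, 28.0, 22.4, 31.6 and 46.2 with an offset of 16, and 21.2, 17.2, 24.2 and 34.9 without normalization. With quantile normalization it was 20.9 for dre-miR-203a and 23.3 for dre-miR-205. With the robust SD of the empty spots it was 50.2 for dre-miR-203a, 53.1 for dre-miR-203b-3p and 35.1 for dre-miR-205. Without the liver array, an alternative added after seeing the data, it was 59.4, 62.4, 113 and 138 in the same order. Without normalization, 5 instead of 9 striated muscle probes passed the 4-fold limit. Over all 663 probes the count past 4-fold was 13, and it was 19 with quantile normalization, 9 without normalization and 20 without the liver array. At a fold of 2 it was 32 and at a fold of 8 it was 10. The detection limit of the liver array set the lowest ratio of each of the 4 bright probes in the main processing. The single array per tissue limits all of these values. No paired analysis was possible because each tissue has 1 array and no test between tissues was run.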
